A study of Mus musculus with 8 samples.

Results

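Alternative activation markers and Ccr4 ligands are 8 genes of macrophages: the chemokines Ccl22, Ccl17 and Ccl24, the lectin receptors Mrc1, Clec10a and Mgl2, and the secreted proteins Chil3 and Retnla. They were found as the probe sets of an Affymetrix mouse array annotated to exactly 1 of these symbols. All 8 have a single such probe set, and they are 8 of 18193 genes measured. RNA came from mouse bone marrow cells that were cultured into macrophages with macrophage colony-stimulating factor and kept by adherence. There were 4 groups of 2 arrays each: Tpl2-deficient (KO) macrophages with LPS, KO macrophages unstimulated, wild-type (WT) macrophages with LPS, and WT macrophages unstimulated. The product of Map3k8, the kinase Tpl2, carries toll-like receptor signals to MEK and ERK. LPS is a ligand of toll-like receptor 4 from Escherichia coli and was used at 1 μg/mL. The labels give no LPS time for these arrays, and no strain, age or kind of Tpl2 allele. The 2 arrays of each group are labelled biological replicates, with no word on whether the cells came from separate animals, so the p-values measure the spread between these samples.

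Macrophages exposed to interleukin-4 or interleukin-13 take on a programme called alternative activation. The cytokines act through the receptor chain Il4ra and the transcription factor Stat6, and in the mouse the programme is recognised by the lectins and secreted proteins named above. Ccl17 and Ccl22 are ligands of Ccr4, a receptor of type 2 helper and regulatory T cells and of skin-homing T cells, and LPS is also known to induce Ccl22 in macrophages and dendritic cells. Ccl24 attracts eosinophils through Ccr3 and is not a Ccr4 ligand. No interleukin-4 or interleukin-13 was added to these cultures according to the labels.

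The Ccr4 ligands lie near each other in the genome. In RefSeq's gene order for assembly GRCm38.p6, genes on chromosome 8 follow in the order Pllp, Ccl22, Cx3cl1, Ccl17 and Ciapin1. Mgl2 and Clec10a are direct neighbours on chromosome 11. The promoters of Ccl22 and Ccl17 are shown because these genes rose together with LPS, and that of Retnla because it holds the same motif as Ccl17 while its signal stayed under the array median in every group. Each is the 250 bases before the gene's start in RefSeq, GRCm38.p6, on the + strand: chr8:94745434-94745683 for Ccl22, chr8:94810203-94810452 for Ccl17 and chr16:48842359-48842608 for Retnla. Capitals mark a STAT6-type match, TTC and GAA with any 4 bases between them.
Ccl22: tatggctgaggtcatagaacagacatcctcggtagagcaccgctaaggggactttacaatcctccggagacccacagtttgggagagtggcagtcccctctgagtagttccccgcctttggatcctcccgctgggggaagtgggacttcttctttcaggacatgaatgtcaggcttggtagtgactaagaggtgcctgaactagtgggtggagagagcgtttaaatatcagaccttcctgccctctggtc
Ccl17: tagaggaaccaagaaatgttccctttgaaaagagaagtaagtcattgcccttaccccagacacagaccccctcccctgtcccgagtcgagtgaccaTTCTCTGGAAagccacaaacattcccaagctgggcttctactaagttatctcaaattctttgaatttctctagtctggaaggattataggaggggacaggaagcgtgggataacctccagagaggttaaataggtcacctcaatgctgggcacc
Retnla: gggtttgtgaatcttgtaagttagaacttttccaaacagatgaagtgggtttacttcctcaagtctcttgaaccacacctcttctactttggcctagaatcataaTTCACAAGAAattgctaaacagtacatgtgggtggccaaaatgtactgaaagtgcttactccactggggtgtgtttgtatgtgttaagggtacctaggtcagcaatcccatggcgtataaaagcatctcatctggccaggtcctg

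Promoters were found in the RefSeq table for 6 of the 8 genes, all except Ccl24 and Clec10a. The STAT6-type letters read the same on both strands. They begin at position -154 of Ccl17 and at -145 of Retnla, counted back from the gene's start, and they are not in the windows of Ccl22, Mrc1, Chil3 or Mgl2. Of 32851 mouse promoter windows of the same length that were searched, 5.85% hold the motif. Both strands were also searched for the AP-1 motif TGANTCA, the interferon response motif (GAAA and GAAA with any 2 bases between them) and the NF-kB motif GGGRNNYYCC. In these letters N is any base, R is A or G, and Y is C or T. None of these 3 motifs was found in the 6 windows, and they occur in 6.75%, 2.98% and 7.25% of the 32851 windows searched. A match is a description of the letters and not a shown binding site.

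The arrays matched their labels where this could be checked. The Map3k8 signal was 9.83 and 10.09 (log2) in KO macrophages with LPS, against 11.01 and 10.91 in WT macrophages with LPS. It was 8.32 and 8.23 in unstimulated KO macrophages, against 9.27 and 9.28 in unstimulated WT macrophages, and it was lower in KO cells in both comparisons (limma adjusted p = 0.000125 and 0.00237). All 10 of 10 genes listed as induced by LPS rose in both genotypes. All 11 measured macrophage markers lay above the array median in each of the 4 groups. Array medians were 6.48 to 6.53, and values under them are read as expression not shown. A value little above them is a weak sign of expression. The Map3k8 signal lay above them on all KO arrays, from 8.23 to 10.09, and was higher with LPS than without it in both genotypes. It was thus lower in KO cells but not absent, and the labels do not say what transcript remains. Of 6 measured T and NK cell markers, 3 (Cd3e, Cd4 and Cd8a) also had group means above the array medians in all 4 groups. So did 2 of 8 neutrophil markers (S100a8 and Camp) and, of 7 stromal markers, Col1a1, Col1a2 and Dcn. The stromal marker Pdgfrb was above them with LPS alone, at means of 10.16 in KO and 8.96 in WT cells. The unstimulated KO arrays differed in stromal markers, with Col1a2 at 8.88 and 7.68 and Col3a1 at 6.56 and 4.82. The B-cell marker Pax5 was above the medians in all groups except unstimulated WT cells. The 2 arrays of a group correlated at r = 0.994 for KO with LPS, against 0.997 in each of the other 3 groups, and the median SD of a gene was 0.129 there, against 0.0649 to 0.0662 in the others. Arrays have no read depth, so their number limits the precision.

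LPS raised all 3 chemokines and lowered the lectins Mrc1 and Clec10a in both genotypes, while Mgl2, Chil3 and Retnla stayed under the array median. Ccl22 had the largest change of the 8 genes. Tpl2 deficiency made no called difference to the 8 genes in unstimulated cells. With LPS, Ccl22 was 1.47-fold higher in KO than in WT macrophages. All values below are log2 RMA signals, changes are log2 differences with their SE, and a gene is called at a limma adjusted p under 0.05 over all 18193 genes. Where the lower of the compared means is under the array median, a change is given as a lower bound ("at least"). In RNA from whole cultures, fewer cells of a type and less RNA per cell cannot be told apart.

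**Figure D1:**
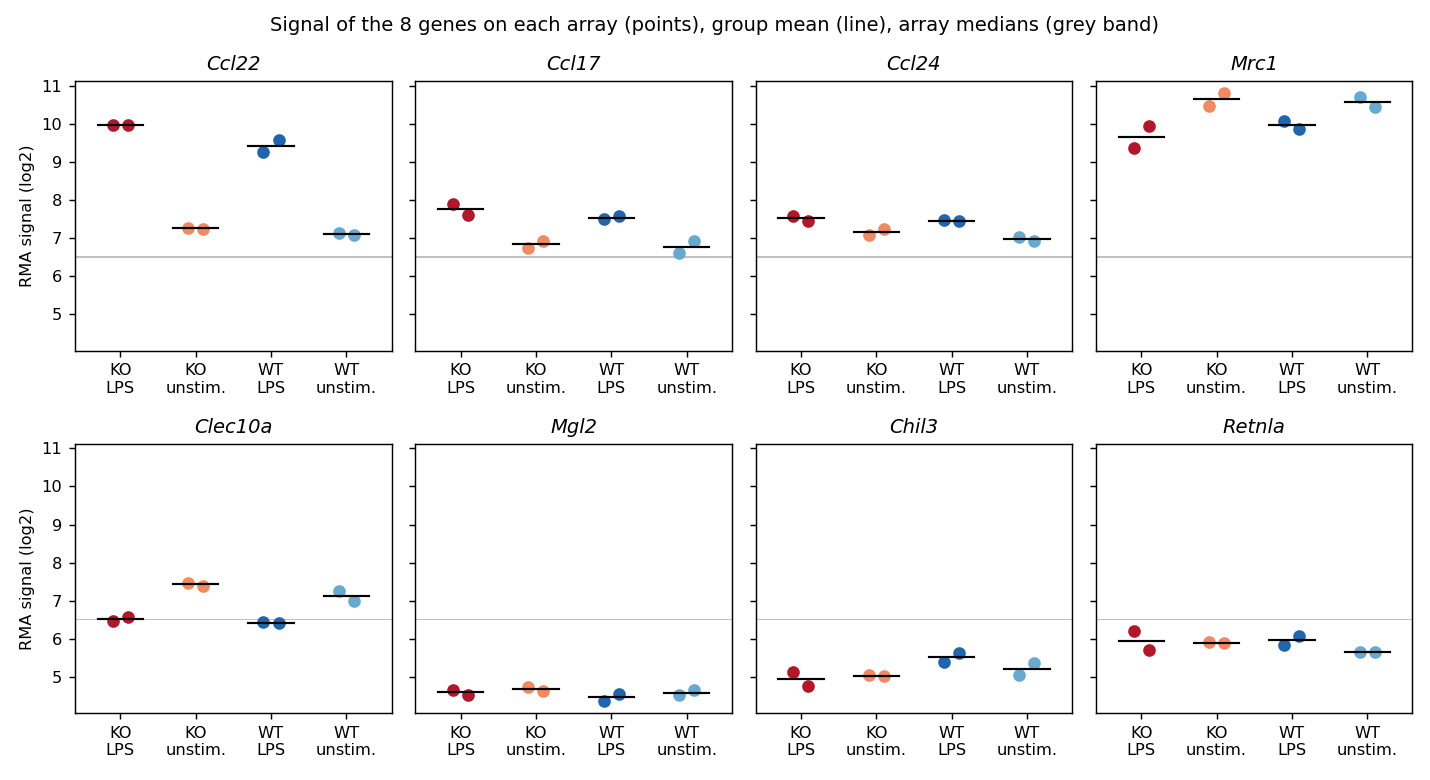
Log2 RMA signal of the 8 genes on each array. Each panel is 1 gene, points are single arrays, black lines are means of the 2 arrays of a group, and the grey band spans the array medians (6.48 to 6.53). Ccl22 is at 9.98 and 9.97 in KO cells with LPS and at 9.26 and 9.57 in WT cells with LPS, while Mgl2, Chil3 and Retnla lie under the band on all 8 arrays.

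Ccl22, also called macrophage-derived chemokine, was induced by LPS in both genotypes. Its signal was 9.98 and 9.97 in KO macrophages with LPS, against 7.27 and 7.23 in unstimulated KO macrophages. It was 9.26 and 9.57 in WT macrophages with LPS, against 7.12 and 7.08 in unstimulated WT macrophages. Every LPS array lay above every unstimulated array, and both KO arrays with LPS lay above both WT arrays with LPS. The change with LPS was 2.72 ± 0.12 in KO cells (6.60-fold, limma adjusted p = 6.58e-09) and 2.32 ± 0.12 in WT cells (4.98-fold, adjusted p = 2.3e-08). The difference between genotypes under LPS was 0.56 ± 0.12, with a 95% interval of 0.30 to 0.81 and a limma adjusted p of 0.00768. Leaving out WT LPS replicate 1, the lower of the WT arrays, gave 0.40 with an adjusted p of 0.0981, so that call rests on this array. The KO response exceeded the WT response by 0.40 (interval 0.04 to 0.76), which did not pass the test (unadjusted p = 0.031, limma adjusted p = 0.167). In unstimulated cells the KO minus WT difference was 0.15 (interval -0.10 to 0.41, adjusted p = 0.593).

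Ccl17, also called thymus and activation-regulated chemokine, is the other Ccr4 ligand, and its rise was smaller than that of Ccl22. The signal was 7.89 and 7.60 in KO cells with LPS, against 6.73 and 6.92 in unstimulated KO cells. It was 7.49 and 7.58 in WT cells with LPS, against 6.61 and 6.91 in unstimulated WT cells. The LPS and unstimulated arrays did not overlap, and Ccl17 lay above the array median on all 8 arrays, although by little in unstimulated cells. LPS raised Ccl17 by 0.92 ± 0.14 in KO cells (1.89-fold, limma adjusted p = 0.000187) and by 0.77 ± 0.14 in WT cells (1.71-fold, adjusted p = 0.000601). Under LPS both KO arrays were above both WT arrays, but the difference of 0.21 (interval -0.09 to 0.51) did not pass (limma adjusted p = 0.407). In unstimulated cells the difference was 0.06 (interval -0.24 to 0.36, adjusted p = 0.884).

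Cx3cl1, the gene of the chemokine fractalkine, lies between Ccl22 and Ccl17 and was looked at after its values were seen. Its signal was 8.70 and 9.07 in KO cells with LPS, against 7.00 and 7.11 in unstimulated KO cells. In WT cells it was 7.98 and 8.36 with LPS, against 6.80 and 6.70 unstimulated. The neighbour thus also had higher signals on all LPS arrays, and both KO arrays with LPS were above both WT arrays with LPS. Cx3cl1 rose by 1.83 ± 0.15 in KO cells (limma adjusted p = 1.45e-06) and by 1.42 ± 0.15 in WT cells (adjusted p = 1.01e-05). Under LPS it was 0.72 ± 0.15 higher in KO than in WT cells (limma adjusted p = 0.00804). That call was lost without WT LPS replicate 1 (0.53, adjusted p = 0.0955), without KO LPS replicate 2 (0.53, adjusted p = 0.0525) and with the mean of all Cx3cl1 probe sets (0.28, adjusted p = 0.107).

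Ccl24, also called eotaxin-2, rose least of the 3 chemokines. Its signal was 7.58 and 7.45 in KO cells with LPS, against 7.09 and 7.23 in unstimulated KO cells. It was 7.46 and 7.44 in WT cells with LPS, against 7.02 and 6.92 in unstimulated WT cells. The LPS arrays were above the unstimulated arrays in each genotype, and all 8 arrays were above their medians. The rise was 0.36 ± 0.10 in KO cells (1.28-fold, limma adjusted p = 0.0163) and 0.48 ± 0.10 in WT cells (1.39-fold, adjusted p = 0.00237). The KO call was lost without KO LPS replicate 1 (0.29, adjusted p = 0.053), without KO unstimulated replicate 1 (0.29, adjusted p = 0.144) and with arrays centred on hybridisation spike-ins (0.15, adjusted p = 0.396). It was also lost with array weights (adjusted p = 0.0509), with weights per group (adjusted p = 0.0511) and with only the arrays compared (adjusted p = 0.0528). KO and WT cells differed by 0.06 with LPS (interval -0.17 to 0.29) and by 0.19 without it (interval -0.04 to 0.42), and neither difference passed (limma adjusted p = 0.795 and 0.458).

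Ccl17 and Ccl22 are known products of dendritic cells as well as of macrophages, so markers of dendritic cells were read beside them. The mean signal of the 11 measured dendritic cell markers was 7.46 to 7.55 over the KO arrays with LPS and 7.44 to 7.45 over the unstimulated KO arrays. In WT cells it was 7.31 to 7.33 with LPS and 7.46 to 7.54 unstimulated. Zbtb46, Xcr1, Dpp4 and Cd209a, which mark dendritic cells, were not above the array median in any group, and no marker is at 0 because RMA values have no zero. Others of the list, Flt3, Itgax, H2-Ab1, Ciita and Batf3, were above it in all 4 groups, so that 5 or 6 of the 11 were above it in a group. Under LPS, 1 of the 11 was higher in KO than in WT cells (Ciita), 1 was lower (Itgax) and 9 did not pass. The shares of all genes were 8.01% higher and 5.73% lower. Without Ciita, the regulator of MHC class II genes, the mean of the list was 7.26 to 7.40 in KO cells with LPS, against 7.29 to 7.32 in WT cells with LPS. The part of such cells in the Ccl22 difference was not tested. Of 10 markers of eosinophils, basophils and mast cells, Siglecf alone had group means above the array medians, in all 4 groups.

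Mrc1, the mannose receptor Cd206, fell with LPS. Its signal was 9.36 and 9.93 in KO macrophages with LPS, against 10.47 and 10.80 in unstimulated KO macrophages. It was 10.06 and 9.86 in WT macrophages with LPS, against 10.69 and 10.44 in unstimulated WT macrophages. Every LPS array was below every unstimulated array, and the KO arrays with LPS differed from each other more than the arrays of any other group. Mrc1 fell by 0.99 on the log2 scale in KO cells (SE 0.18, limma adjusted p = 0.000922) and by 0.61 in WT cells (SE 0.18, adjusted p = 0.0162). The WT call was lost without WT LPS replicate 2 (-0.50, adjusted p = 0.108) and without WT unstimulated replicate 1 (-0.48, adjusted p = 0.109). Under LPS the KO minus WT difference was -0.32 (interval -0.72 to 0.09, limma adjusted p = 0.345), and it passed without KO LPS replicate 2 (-0.61, adjusted p = 0.0458). In unstimulated cells it was 0.07 (interval -0.34 to 0.47, adjusted p = 0.908). With LPS, 16.0% of all genes rose and 25.8% fell in KO cells, and 21.3% rose and 30.9% fell in WT cells. Of the 11 measured macrophage markers, 3 rose with LPS in each genotype (Fcgr1, Cd14 and Spi1), while 5 fell in KO and 4 in WT cells. Their mean signal was 12.58 to 12.68 in KO cells with LPS, against 13.04 to 13.08 unstimulated, and 12.74 to 12.75 in WT cells with LPS, against 13.07 to 13.09 unstimulated. Without Cebpa, a myeloid transcription factor and the marker with the largest fall, it was 13.12 to 13.23 in KO cells with LPS, against 13.09 to 13.14 unstimulated, and 13.22 in both WT arrays with LPS, against 13.14 to 13.15 unstimulated.

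Clec10a, the macrophage galactose lectin Mgl1, was near the array median with LPS. Its signal was 6.46 and 6.58 in KO cells with LPS, against 7.47 and 7.39 in unstimulated KO cells. It was 6.44 and 6.40 in WT cells with LPS, against 7.25 and 6.99 in unstimulated WT cells. The 4 unstimulated arrays were all above their medians, and of the LPS arrays a single KO array was. Clec10a fell by 0.91 in KO cells (SE 0.11, limma adjusted p = 4.31e-05), to a mean of 6.52 that is within the range of the array medians. In WT cells it fell by at least 0.70 (SE 0.11, adjusted p = 0.000306). Unstimulated KO cells had 0.32 more than WT cells (interval 0.07 to 0.57), which did not pass over all genes (limma adjusted p = 0.270). Under LPS the difference was 0.10 (interval -0.15 to 0.35, adjusted p = 0.693), and the groups did not overlap.

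Mgl2, the second galactose lectin of the mouse and the direct neighbour of Clec10a, was under the array median on all 8 arrays. Its signals were 4.66 and 4.52 in KO cells with LPS, 4.73 and 4.62 in unstimulated KO cells, 4.36 and 4.55 in WT cells with LPS, and 4.51 and 4.66 in unstimulated WT cells. Expression of Mgl2 was therefore not shown in any group.

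Chil3, the chitinase-like protein Ym1, was also under the median on 8 of 8 arrays. Its signals were 5.12 and 4.76 in KO cells with LPS, 5.04 and 5.01 in unstimulated KO cells, 5.38 and 5.63 in WT cells with LPS, and 5.04 and 5.35 in unstimulated WT cells. The KO arrays with LPS were below the WT arrays with LPS, by -0.57 ± 0.15 (limma adjusted p = 0.0271), but with both group means under the median this is not a difference in shown expression. It was lost without KO LPS replicate 2 (-0.39, adjusted p = 0.135), without WT LPS replicate 2 (-0.44, adjusted p = 0.218) and with array weights (adjusted p = 0.0945; 0.095 with weights per group). A second probe set, shared by Chil3 and its neighbour Chil4, was also under the median on all arrays and differed by -0.18 (adjusted p = 0.455 over all probe sets).

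Retnla, the resistin-like molecule Fizz1, was the third gene under the median on every array. Its signals were 6.19 and 5.70 in KO cells with LPS, 5.92 and 5.89 in unstimulated KO cells, 5.84 and 6.07 in WT cells with LPS, and 5.64 and 5.66 in unstimulated WT cells. The groups overlapped between KO and WT under LPS, and Retnla passed the test in none of the 5 comparisons of the main analysis. Its change with LPS in WT cells (0.31, limma adjusted p = 0.108) passed with array weights (adjusted p = 0.0283), with weights per group (adjusted p = 0.0283) and with only the arrays compared (adjusted p = 0.035). With all groups under the median, this is not a rise in shown expression.

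Counted together, 3 of the 8 genes rose and 2 fell with LPS in KO cells, and 3 rose and 2 fell in WT cells. LPS changed 41.8% of all genes in KO cells (16.0% higher, 25.8% lower) and 52.2% in WT cells (21.3% higher, 30.9% lower), and a share of 5 in 8 genes against that background is not called particular to them. In another setting, only genes with an 8-array mean above the median of all gene means were tested. This line is not the array median and lies above it. It removed Ccl17, Ccl24 and Clec10a untested (8-array means 7.22, 7.27 and 6.87), and 2 of the 8, Ccl22 and Mrc1, passed in each genotype. In LPS-treated cells 1 of the 8 was higher in KO (Ccl22) and 1 lower (Chil3, under the median). The background there was 13.7% of all genes, with 8.01% higher and 5.73% lower. The arrays of the groups did not overlap for 4 of the 8, Chil3, Clec10a, Ccl17 and Ccl22, and for 46.6% of all genes, so this count is near the background. In unstimulated cells limma called 0 of the 8, with 1 (Clec10a) at an unadjusted p under 0.05, against 0.500% of all genes called. For the difference of the LPS responses limma called 0 of the 8, with 1 (Ccl22) at an unadjusted p under 0.05, against 8.59% of all genes (5.72% higher, 2.87% lower). The background in unstimulated cells was 0.154% higher and 0.346% lower. The comparisons share arrays and are not independent of each other.

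**Figure D2:**
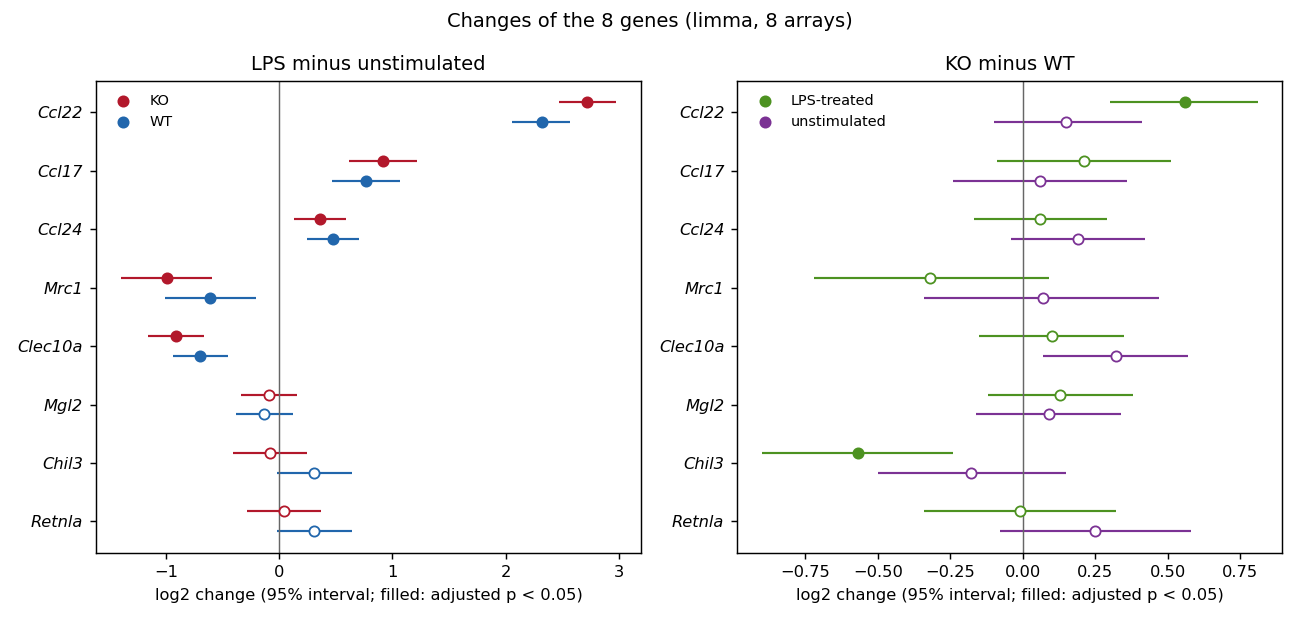
Log2 differences of the 8 genes with 95% intervals, LPS minus unstimulated in KO and WT cells and KO minus WT with LPS and unstimulated. Filled points passed at a limma adjusted p under 0.05. Ccl22, Ccl17 and Ccl24 lie to the right of 0 with LPS in both genotypes, Mrc1 and Clec10a to the left, and of the unstimulated genotype differences none is filled.

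Genes with array profiles most like a member were sought for members whose 4 group means spanned at least 1, which were Ccl22 (span 2.88) and Clec10a (span 1.01). Likeness was the Euclidean distance between the 8 array values, each centred on the gene's mean. Nearest to Ccl22 were Ikzf1, the lymphoid transcription factor Ikaros, at 0.33, Katna1, a subunit of the microtubule-severing enzyme katanin, at 0.33, and Cd83, a surface protein of activated dendritic cells, at 0.40. Cd83 rose by 2.42 in KO and 2.15 in WT cells with LPS. Nearest to Clec10a were Snhg7 at 0.24, Zfp94 at 0.26 and Ppt1, a lysosomal thioesterase, at 0.28.

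Receptors of the chemokines had low signals in these cultures. Ccr4 was under the array median in all groups, at 5.08 and 4.88 in KO cells with LPS, 5.02 and 5.15 in unstimulated KO cells, 5.07 and 5.38 in WT cells with LPS, and 5.03 and 4.66 in unstimulated WT cells. Ccr3, the receptor of Ccl24, had a group mean under the median in every group. Its highest values were 6.51 and 6.17 in WT cells with LPS, where KO cells with LPS had 5.13 and 4.73. Of the list of 10 receptors and related chemokines, 3 rose in KO cells and 6 in WT cells with LPS, and none fell. Ccl2, Ccl7 and Ccl8 rose in both genotypes. The genes called in WT cells alone, Ccr4, Ccr3 and Ccr8, had group means under the array median in every group, so their expression was not shown. The WT calls of Ccr4 (0.38, limma adjusted p = 0.049) and Ccr8 (0.54, adjusted p = 0.0373) were lost with quantile normalization repeated (adjusted p = 0.137 and 0.0794). The shares of all genes that rose were 16.0% in KO and 21.3% in WT cells, and 25.8% and 30.9% fell. When only genes above the median level were tested, 3 of the 10 remained (Ccl2, Ccl7 and Ccl8), and all 3 rose in both genotypes. The list's median change was 0.24 in KO cells, where that of all genes was 0.00, and 0.47 in WT cells, where that of all genes was 0.04. Under LPS, 5.73% of all genes were lower in KO than in WT cells. So were 3 of the 10: Ccr3 and the monocyte attractants Ccl7 (-3.69) and Ccl2 (-2.35). Ccl22 went the other way in the same comparison.

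The receptor chain of interleukin-4 responded to LPS in WT but not detectably in KO cells. Il4ra was 9.21 and 9.11 in KO macrophages with LPS, against 9.31 and 9.23 in unstimulated KO macrophages. In WT macrophages it was 10.78 and 10.77 with LPS, against 9.48 and 9.46 unstimulated. The WT arrays with LPS stood above all 6 others. The LPS change was -0.11 in KO cells (limma adjusted p = 0.401) and 1.30 ± 0.10 in WT cells (adjusted p = 5.53e-07). Under LPS, Il4ra was lower in KO than in WT cells by -1.62 ± 0.10 (limma adjusted p = 1.14e-06). The difference of the responses was -1.42 (adjusted p = 0.000103), and the calls in WT, under LPS and for the difference of responses each held in 15 of 15 alternative settings. Il13ra1, the second chain of the type II receptor, rose by 1.96 in KO and by 2.88 in WT cells, and under LPS it was lower in KO cells by -0.73 (limma adjusted p = 0.000597).

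Stat6, the transcription factor of the pathway, fell with LPS in both genotypes. Its signal was 10.44 and 10.76 in KO cells with LPS, against 11.96 and 11.89 in unstimulated KO cells. In WT cells it was 10.63 and 10.71 with LPS, against 11.92 and 11.82 unstimulated. The changes were -1.32 in KO cells (limma adjusted p = 3.16e-06) and -1.21 in WT cells (adjusted p = 5.68e-06), and under LPS the genotypes differed by -0.07 (adjusted p = 0.819). Socs1, an inhibitor of Janus kinase signalling, rose by at least 3.73 in KO and at least 3.85 in WT cells. With LPS, 16.0% of all genes rose and 25.8% fell in KO cells, and 21.3% rose and 30.9% fell in WT cells. Of 10 measured genes of the receptor and signalling list, 6 rose and 2 fell in KO cells (median 0.55), and 7 rose and 2 fell in WT cells (median 0.61). The 2 that fell in each genotype were Stat6 and Irs2, an adaptor of the interleukin-4 receptor. Under LPS, 2 of the 10 were higher in KO than in WT cells, the kinase Tyk2 (0.50, limma adjusted p = 0.0394) and the feedback inhibitor Cish (0.67, adjusted p = 0.00494), and 2 were lower, Il4ra and Il13ra1. The shares of all genes there were 8.01% higher and 5.73% lower. The call of Tyk2 was lost in 9 of 15 alternative settings, and that of Cish without WT LPS replicate 1 (0.59, adjusted p = 0.0585).

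**Figure D3:**
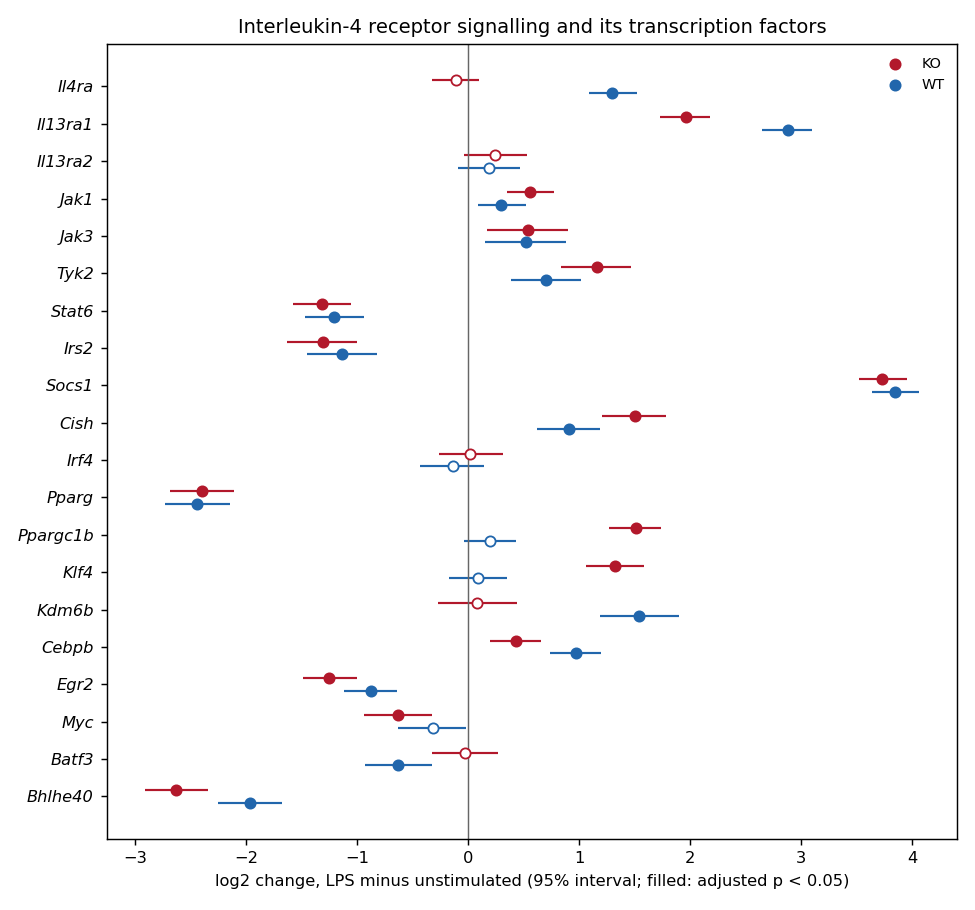
Log2 change with LPS, LPS minus unstimulated, in KO and WT cells for 20 genes of interleukin-4 signalling and of the transcription of the alternative programme, with 95% intervals. Il4ra and Kdm6b rise in WT cells (1.30 and 1.54) and not in KO cells (-0.11 and 0.08), while Ppargc1b and Klf4 rise in KO cells (1.51 and 1.32).

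Transcription factors and chromatin genes of the alternative programme moved in both directions. Pparg, a nuclear receptor of lipid metabolism, fell by 2.40 in KO cells and by 2.44 in WT cells with LPS. Kdm6b, a histone H3 demethylase, was 8.27 and 7.73 in KO cells with LPS, against 9.70 and 9.49 in WT cells with LPS, a difference of -1.59 (limma adjusted p = 5.64e-05). Ppargc1b, a coactivator of mitochondrial genes, was 10.27 and 10.31 in KO cells with LPS, against 9.04 and 8.97 in WT cells with LPS, a difference of 1.28 (adjusted p = 1.33e-05). Klf4, a transcription factor that acts with Stat6, was 10.30 and 10.13 in KO cells with LPS, against 9.37 and 9.42 in WT cells with LPS, a difference of 0.82 (adjusted p = 0.000729). Irf4 was under the array median in all groups. Under LPS, 2 of the 10 listed genes were higher in KO cells (Ppargc1b and Klf4) and 5 lower, with a median of -0.59, where that of all genes was 0.02. The shares of all genes were 8.01% higher and 5.73% lower. In unstimulated cells 0.500% of all genes were called, and of the 10 only Egr2, at -0.64 in KO against WT (limma adjusted p = 0.0338). That call was lost in 8 of 15 alternative settings.

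In LPS-treated cells 8.01% of all genes were called higher in KO than in WT cells and 5.73% lower. Among 22 other genes of alternative activation, 0 were called higher and 11 lower in KO than in WT cells under LPS, with a median of -0.38, where that of all genes was 0.02. The count was 6 without WT LPS replicate 1 and 5 without WT LPS replicate 2, so a single array moves it. The largest differences were those of Cd200r1, an inhibitory receptor of myeloid cells (-1.46, limma adjusted p = 4.61e-05), Msr1, a scavenger receptor (-1.19, adjusted p = 1.1e-05), and Flt1, a receptor of vascular endothelial growth factor (-1.06, adjusted p = 5.69e-05). Cd200r1 was 8.31 and 8.81 in KO cells with LPS, against 10.07 and 9.98 in WT cells with LPS. Msr1 was 12.08 and 12.15 in KO cells with LPS, against 13.27 and 13.34 in WT cells with LPS. Neither pair of groups overlapped. Arg1, arginase 1, was under the array median in every group and passed in no comparison. With LPS itself, 5 of the 22 rose (3 with spike-in centring) and 10 fell in KO cells, and 6 rose and 9 fell in WT cells. The shares of all genes were 16.0% and 25.8% in KO cells, and 21.3% and 30.9% in WT cells. The counts depend in part on the probe set used. Trem2 is counted as a fall in KO (-0.86) and WT cells (-0.91). Without probe sets whose names end in _x_at or _s_at, it changed by 0.04 in KO and -0.03 in WT cells and did not pass. The WT rise of Tgm2 (0.35) was lost there too (0.24, limma adjusted p = 0.108). Il1rn, the interleukin-1 receptor antagonist, rose by 4.27 in KO and 4.59 in WT cells, and Slc7a2, an arginine transporter, by 3.05 in KO and 3.35 in WT cells. In unstimulated cells limma called 0 of the 22, with 6 at an unadjusted p under 0.05, against 0.500% of all genes called.

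**Figure D4:**
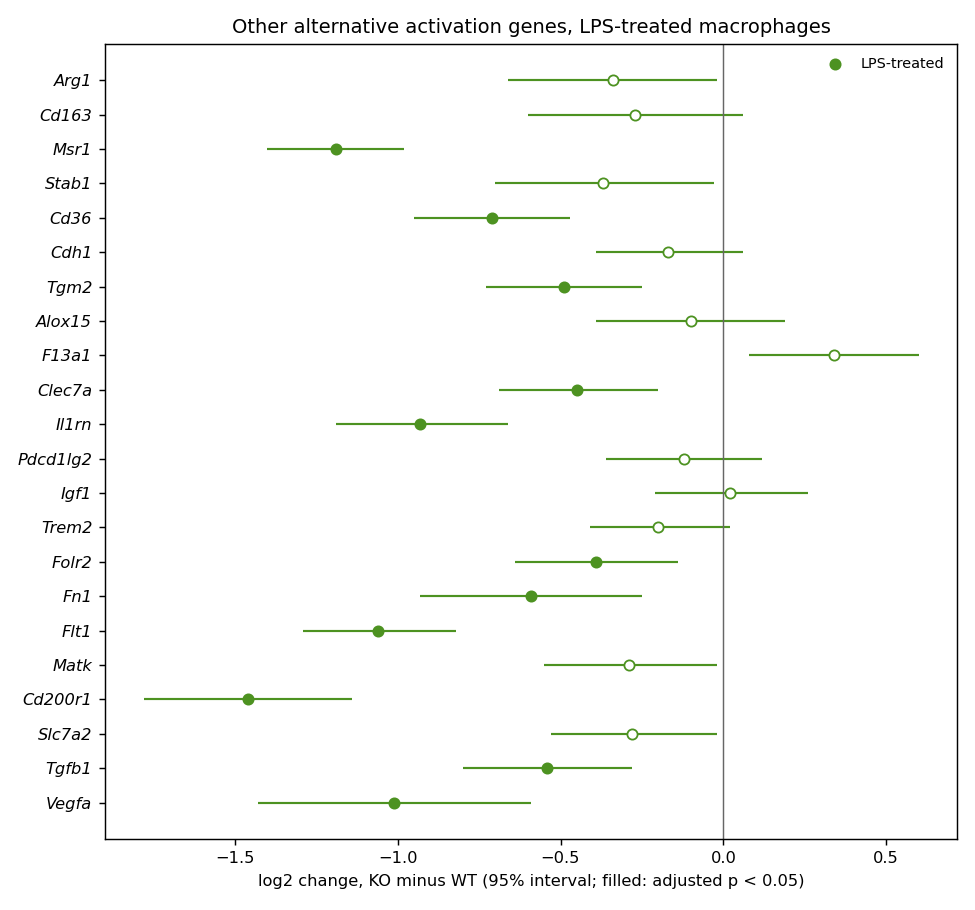
Log2 difference between KO and WT macrophages with LPS, KO minus WT, for 22 other genes of alternative activation, with 95% intervals. Filled points passed at a limma adjusted p under 0.05. The 11 filled points all lie to the left of 0, with Cd200r1 at -1.46. Of all genes, 8.01% were called higher and 5.73% lower in this comparison.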

How the data were processed

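Gene expression was measured on 8 arrays. The deposited values are log2 intensities made with GCOS and RMA, per the submitters' processing notes. Versions, chip definition and genome build are not given in the sources used here. The values of 45101 probe sets lie between 2.6667 and 15.3299, as log2 RMA values do. The 34945 probe sets with exactly 1 symbol, controls left out, gave 18193 genes, and a gene's value is that of the probe set with the highest 8-array mean.

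A linear model with 4 group means and no batch or replicate term was fitted to all 8 arrays with limma 3.58.1 under R 4.3.3 (lmFit, eBayes, two-sided tests; 4 residual and 6.87 prior degrees of freedom), in 5 comparisons. P-values were adjusted by Benjamini-Hochberg over all genes, and intervals are 95% intervals. The method was tested on simulated data.

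The genes and lists were chosen with earlier results of these data known. Named genes are the 8 members, per list and comparison at most 6 genes past the test with the largest change, a fixed set of 11 others and Map3k8. Alternatives were other probe set rules, scalings, filters and variance models, array weights, a replicate block and the omission of single arrays. A crossed block was added after seeing the data. Same-numbered arrays did not deviate together (r from -0.12 to 0.10 over the pairs of groups). This gives no sign that the numbers pair arrays but cannot exclude it, and the labels do not state it.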

Additional observations from a re-analysis of the deposited data

Results flagged for a closer look

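The LPS response differed between KO and WT macrophages, by limma's test of the difference of the responses, for 19 of the genes named by the rule and for none of the 8 alternative activation markers and Ccr4 ligands. Of all genes, 8.59% differed by this test. Values are the KO response minus the WT response on the log2 scale.

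In the interleukin-4 receptor and transcription lists, the response of Il4ra was lower in KO by -1.42 and that of Il13ra1 by -0.92. Kdm6b differed by -1.46, Bhlhe40 by -0.66 and Cebpb by -0.54, while Ppargc1b differed by 1.31 and Klf4 by 1.23. Among other alternative activation genes, Cd200r1 differed by -1.33, Msr1 by -1.08, Flt1 by -1.03, Clec7a by -0.57 and Tgm2 by -0.56. Among the chemokines and receptors, Ccl7 differed by -3.41, Ccl2 by -2.24 and Ccr3 by -1.40, with Ccr3 under the array median in all groups. Il10 differed by -2.82 and Il33 by -0.72, with Il33 under the array median in all groups. Of the genes that check the LPS treatment, Il1b differed by -2.66 and Il12b by 1.01. The unstimulated means of Il10 and Il12b in both genotypes, and of Ccl7 in KO cells, were under the array median, so the sizes given for these 3 genes depend on a background signal. Calls were lost in 8 of 15 alternative settings for Bhlhe40, 11 for Cebpb, 10 for Clec7a, 10 for Tgm2 and 7 for Il12b, and in 5 of 14 for Il33. Other listed genes gained this call in some settings. With the mean of all probe sets, Il1rn (-0.74, limma adjusted p = 0.00974), Ptgs2 (-1.09, adjusted p = 0.00702) and Socs3 (-0.79, adjusted p = 0.0103) passed. Whether these genes pass thus depends on the probe sets used. Cish, Batf3 and Cd36 passed when only genes above the median of all gene means were tested. No sample of a group could stand apart by a test here, since each group has 2 arrays.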

How the results depend on the processing

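Over all alternatives, single values of the 8 genes kept direction and side of the threshold 773 times, lost a call 13 times, gained one 8 times and turned sign 16 times, in no case past the test. In KO cells with LPS, Retnla turned to -0.16 (spike-in centring). Without single arrays Chil3 ranged from -0.27 to 0.10 and Retnla from -0.20 to 0.29. In unstimulated cells, Mrc1 ranged from -0.09 to 0.23 without single arrays, and Ccl17 from -0.09 to 0.21. Between genotypes under LPS, Retnla turned to 0.02 (spike-ins) and ranged from -0.25 to 0.24 without single arrays, and Ccl24 ranged from 0.00 to 0.13. For the difference of responses, Mgl2 turned to -0.03 (spike-ins) and ranged from -0.06 to 0.14 without single arrays. The cause was not tested.

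Of the 8 genes, 5 passed for LPS in KO cells and 5 in WT cells, against 2 and 2 with only genes above the median of all gene means. That filter tests fewer genes and removed Ccl17, Ccl24 and Clec10a untested. With array weights, and with weights per group, 4 passed in KO cells and 7 in WT cells, where Chil3 and Retnla were added. With only the arrays compared, 4 passed in KO cells and 6 in WT cells. Leaving out single arrays gave 4 to 5 in KO and 4 to 6 in WT cells, 0 to 0 for unstimulated genotype, 1 to 2 for genotype under LPS and 0 to 0 for the difference of responses. Genotype under LPS gave 2, and 1 with array weights and with weights per group. It also gave 1 with only genes above the median of all gene means, where Chil3 was removed untested.

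Of all genes, 7596 passed for LPS in KO and 9499 in WT cells, against 13628 and 16679 with each probe set on its own, and 6011 to 8400 and 7544 to 10680 without single arrays. Genotype in unstimulated cells gave 91 genes, 140 with a mean-variance trend, 531 with array weights, 537 with weights per group, 48 with only the arrays compared and 23 to 111 without single arrays. Genotype under LPS gave 2500, 4148 with each probe set, 1580 and 1576 with the weights, and 1356 to 3240 without single arrays. The difference of responses gave 1563, 1022 with spike-ins and 756 to 2565 without single arrays. Centring on spike-ins moved the median of all genes to -0.20 for LPS in KO cells, -0.09 in WT cells and 0.10 for unstimulated genotype. The share of calls that were lower became 78.0% where it was 61.8% (KO with LPS), 74.9% where it was 59.2% (WT with LPS), 43.2% where it was 69.2% (unstimulated genotype) and 47.7% where it was 33.5% (difference of responses). With quantile normalization repeated the last pair became 55.7% and 43.8%.

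With the replicate block, 5, 5, 0, 2 and 0 of the 8 genes and 7509, 9373, 85, 2388 and 1454 of all genes passed, in the order LPS in KO, LPS in WT, genotype unstimulated, genotype under LPS and difference of responses. The crossed block for LPS in KO cells gave 5 of the 8 and 7573 of all genes. With 2 arrays a group, signals near the array median limit what can be shown for Mgl2, Chil3, Retnla and Clec10a.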

Other observations

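Of the cytokines that start alternative activation, Il4 was not shown and Il13 lay little above the array median. Il4 was under the array median in all groups, at 4.92 and 4.83 in KO cells with LPS and 4.66 and 5.07 in WT cells with LPS. Il13 was at 6.93 and 6.86 in KO cells with LPS and 6.95 and 6.98 in WT cells with LPS. Its group means of 6.71 to 6.97 were all above the array medians, and it passed in no comparison. Of 8 type 2 cytokines and their inducers, 2 passed as higher with LPS in KO cells, where 16.0% of all genes did, and 5 in WT cells, where 21.3% of all genes did. All of these except Il10 were under the array median in every group, and the WT count was 3 without WT unstimulated replicate 1 and 3 without WT unstimulated replicate 2. Il10, an anti-inflammatory cytokine, was 8.89 and 8.81 in KO cells with LPS, against 11.53 and 11.62 in WT cells with LPS (limma adjusted p = 5.28e-08). These groups did not overlap.

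Of 13 measured relatives of the 8 genes in sequence, limma called 0 between the genotypes under LPS, with 3 at an unadjusted p under 0.05, and 0 in unstimulated cells, with 0 at an unadjusted p under 0.05. The shares of all genes called were 13.7% and 0.500%. Pla2r1, of the same family as Mrc1, rose with LPS by at least 0.91 in KO and at least 0.70 in WT cells at the probe set used. The WT call was lost with the mean of all Pla2r1 probe sets (0.36, limma adjusted p = 0.0554). Ly75, a lectin receptor also related to Mrc1, was under the array median in all groups, so its expression was not shown. Chil4, the neighbour of Chil3, was under the array median in all groups. Retnlg, the neighbour of Retnla, was not analysed here.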
